A study of Mus musculus with 24 samples.

Results

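The comparison described here is the effect of Hras in wild-type keratinocytes that were treated with GW0742: the 3 arrays of Hras-infected cells against the 3 arrays of mock-infected cells, all given the ligand. These 6 arrays, out of 24, were chosen by their labels and not by any measured value, and the comparison was made across all 19937 genes tested. Total RNA came from primary mouse keratinocytes, the main cell of the epidermis grown in dishes, of strain C57/BL6. They were grown for 2 days before they were transduced. Wild-type cells and cells null for PPAR-beta (the Ppard product) were either mock transduced or infected with an Hras retrovirus for 48 hours, and received 1 uM GW0742 or the vehicle DMSO for 24 hours, which makes 8 groups of 3 arrays. The groups used are wild-type mock and wild-type Hras cells under GW0742, and, for comparison, the same pair under DMSO and the null pair under GW0742. Every group is of the same cell type and strain. Both sides of the main comparison carry the ligand, so a GW0742 effect that is equal in mock and Hras cells is not part of it. A GW0742 effect that differs between mock and Hras cells is. The series title calls the virus's Hras activated. The sources used here do not give whether mock cells received an empty virus, how the null allele was made, which promoter drove Hras, or whether the 3 samples of a group came from separate cultures or animals. P-values therefore measure only how far these arrays spread, which may be technical.

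Hras is a small GTPase that passes growth factor signals to the RAF, MEK and ERK kinases and to PI3 kinase, and ERK in turn raises AP-1 and ETS transcription factors as well as phosphatases and Sprouty-family proteins that damp the signal. Activated Hras is the classic initiating oncogene of mouse skin tumours. Keratinocytes leave the basal layer to make keratins 1 and 10, then cornified envelope proteins and barrier lipids, and those that carry activated Ras are known to handle this programme abnormally. PPAR-beta is a nuclear receptor that pairs with RXR and responds to fatty acids. GW0742 is a synthetic agonist of it, and Pdk4 and Angptl4 are among its best-known target genes.

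Levels are given as log2 expression, on which a step of 1 is a 2-fold change. In wild-type mock cells under GW0742 the median gene had a level of 7.94, 10% of genes lay below 5.29 and the highest reached 14.43. Changes are differences of log2 means, Hras minus mock, ± the standard error from a limma model of all 24 arrays, with n = 3 arrays per group. Effects are compared with their sign, so a higher effect is a more positive change and can be a weaker fall. A gene passed at a Benjamini-Hochberg adjusted p under 0.05. The median standard error was 0.081 for a change and 0.114 for a difference between changes. With 3 arrays a group, the precision of both is limited by that number. The median gene's SD was 0.122 in the null Hras GW0742 group and between 0.0647 and 0.0798 in the other 7 groups, so the comparisons with null cells rest on one more variable group. Ppard read 11.29, 11.27 and 11.22 in the mock arrays and 11.81, 11.80 and 11.84 in the Hras arrays, a change of 0.56 ± 0.06 (adjusted p = 1.47e-07). It read 10.73, 10.60 and 10.80 in null mock cells under the ligand. The sources used here do not give which part of Ppard the null cells lack. If the probe set lies outside that part, it does not check the genotype label.

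Hras changed the expression of 7025 genes in these cells (35.2% of those tested): 3538 were higher (17.7%) and 3487 lower (17.5%). Of the genes that rose, 505 did so by at least 2-fold (2.53% of genes tested), 120 by at least 4-fold (0.602%) and 35 by at least 8-fold (0.176%). Of those that fell, 395 (1.98%), 77 (0.386%) and 14 (0.0702%) passed the same steps. The 3 Hras arrays lay above all mock arrays for 4637 genes (23.3%) and below them for 4782 (24%). These shares are the background for every count of passing genes in this main comparison. A list with 17.7% of its members higher and 17.5% lower would look like all genes, whose median change was -0.02. Counts in the other comparisons, and of differences between effects, have their own shares over all genes, given with them.

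The largest rise was that of Ppbp, the platelet basic protein chemokine (CXCL7). Its level was 5.92, 5.83 and 6.14 in the mock arrays and 12.16, 11.79 and 11.98 in the Hras arrays, a rise of 6.01 ± 0.17 (adjusted p = 3.53e-17). All Hras arrays stood far above all mock arrays, which lay near the level of the dimmest genes. Keratins 8 and 18, which form filaments of simple epithelia and are not typical of normal epidermal keratinocytes, were also among the 10 largest rises. Krt18 read 7.82, 7.69 and 7.84 in the mock arrays and 13.05, 12.94 and 13.06 in the Hras arrays, a rise of 5.23 ± 0.14 (adjusted p = 2.33e-17). Krt8 rose by 4.46 ± 0.16 from a mean of 8.70. With means of 13.02 and 13.16, both were then among the brightest 10% of genes, which in the Hras arrays began at 11.15. Csf2, which encodes the growth factor GM-CSF, read 6.21, 6.66 and 6.54 in the mock arrays and 11.27, 10.86 and 10.68 in the Hras arrays, a rise of 4.46 ± 0.22 (adjusted p = 4.55e-13). The groups were again wide apart. The neighbouring cytokine gene Il3 rose by 4.14 ± 0.23. Kcnn4, a calcium-activated potassium channel, rose by 4.96 ± 0.10, Gpr50, an orphan G protein-coupled receptor, by 4.75 ± 0.16, and Wfdc2, a secreted whey acidic protein, by 4.23 ± 0.18. The set was completed by Prl2c5 at 5.43 ± 0.22 and Prl8a9 at 4.74 ± 0.15, which belong to the placental prolactin family. Members of that family have near-identical copies, so their probe sets may read more than 1 gene.

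The largest falls were those of the early differentiation keratins. Krt1, keratin 1 of the spinous layer, read 13.75, 13.76 and 13.79 in the mock arrays and 7.14, 7.74 and 7.69 in the Hras arrays, a change of -6.24 ± 0.13 (adjusted p = 4.96e-19). It was among the brightest genes on the mock arrays and below the median gene on the Hras arrays. Its partner Krt10 read 12.61, 12.58 and 12.72 in the mock arrays and 7.96, 7.78 and 8.01 in the Hras arrays, a change of -4.72 ± 0.09. Pou2f3, a POU-domain transcription factor of the suprabasal epidermis, read 10.49, 10.46 and 10.44 in the mock arrays and 6.95, 6.88 and 7.04 in the Hras arrays, a change of -3.51 ± 0.05 (adjusted p = 7.32e-21). None of these 3 genes had overlapping groups. Sostdc1, a secreted antagonist of BMP and Wnt signals, changed by -3.27 ± 0.07, and Aspn, the matrix proteoglycan asporin, by -3.38 ± 0.20. Dapl1 changed by -3.69 ± 0.13 and Pi15, a secreted protease inhibitor, by -3.69 ± 0.14. The metabolic enzymes Aox4, an aldehyde oxidase, Them5, a thioesterase, and Aadacl2, a deacetylase-like protein, fell as well, with changes of -3.83 ± 0.12, -3.84 ± 0.11 and -4.34 ± 0.12. All 20 genes had non-overlapping arrays, which the rule that named them required.

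**Figure D1:**
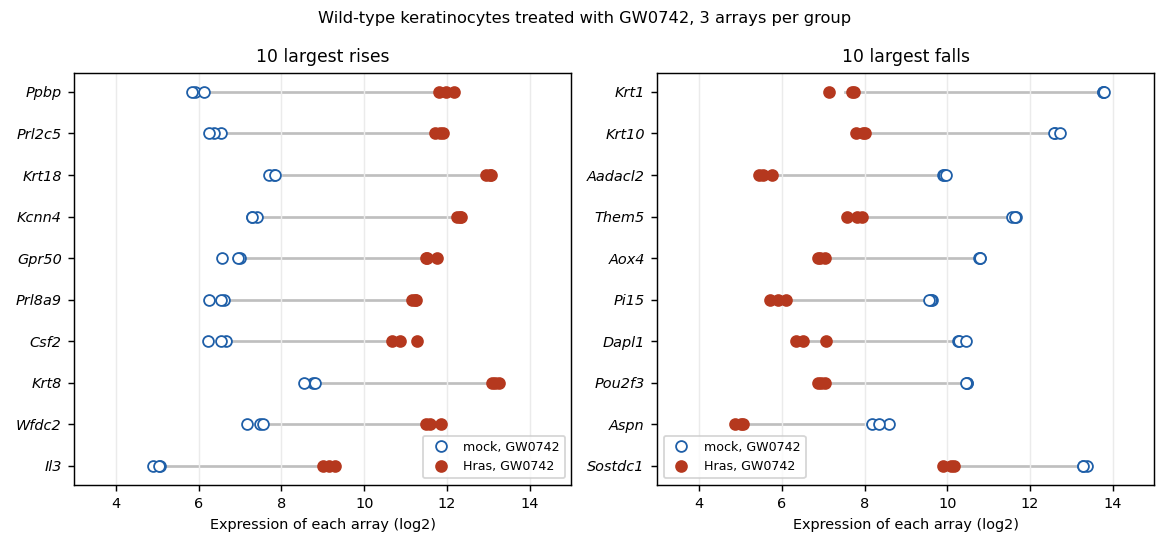
Log2 expression of the 10 genes with the largest rises (left) and the 10 with the largest falls (right) in wild-type cells under GW0742. Open blue points are the 3 mock arrays, filled red points the 3 Hras arrays, and a grey line joins the group means. Krt1 and Krt10 drop from the top of the scale to about the median gene, while Krt8 and Krt18 travel the opposite way.

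The negative feedback genes of the ERK pathway were mostly higher. Of 19 measured members, 11 rose, 4 fell and 4 did not pass (57.9% and 21.1%, median 0.33). The rises were led by Dusp4, a nuclear phosphatase that removes the activating phosphates of MAP kinases. It read 8.22, 8.35 and 8.31 in the mock arrays and 11.77, 11.43 and 11.55 in the Hras arrays, a rise of 3.29 ± 0.09 (adjusted p = 1.78e-17). There was no overlap, and every Hras array was more than 8-fold above every mock array. Dusp5 rose by 1.98, Dusp9 by 1.62 and Dusp6, the cytoplasmic ERK phosphatase, by 1.4. Of the Sprouty-related inhibitors, Spred3 rose by 2.03, Spred1 by 0.45 and Spred2 by 0.33. The Sprouty genes themselves were divided: Spry2 rose by 0.76, while Spry1 fell by 0.77 and Spry4 fell by 0.32. Dusp8 and Dusp16, phosphatases with a preference for JNK and p38, fell by 0.96 and 0.70.

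The transcription factors that lie downstream were also divided. Of 26 AP-1, ETS and immediate early genes, 11 rose and 4 fell, while 11 did not pass (42.3% and 15.4%, median 0.10). Fosl1, the AP-1 subunit FRA-1, rose by 1.39 ± 0.09 (adjusted p = 7.35e-11), and the ETS factors Etv4 and Etv5 rose by 1.19 and 1.37. Fos read 8.43, 8.40 and 8.37 in the mock arrays and 9.35, 9.56 and 9.61 in the Hras arrays, a rise of 1.11 ± 0.12 (adjusted p = 6.92e-08). Its lowest Hras array lay above its highest mock array. The other main AP-1 partner, Jun, went down: it read 11.93, 12.01 and 11.96 in the mock arrays and 10.82, 11.06 and 11.09 in the Hras arrays, a change of -0.98 ± 0.09 (adjusted p = 1.74e-08). Fosl2 fell by 0.51, Etv1 by 0.84 and Egr3 by 0.48. The change of Myc was 0.07 ± 0.05 and did not pass.

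Upstream, the epidermal growth factor family showed rising ligands beside falling receptors. The 17 measured members split into 7 that rose, 6 that fell and 4 that did not pass (41.2% and 35.3%, median -0.04). Hbegf, heparin-binding EGF, read 10.43, 10.35 and 10.31 in the mock arrays and 12.01, 12.21 and 12.20 in the Hras arrays, a rise of 1.77 ± 0.06 (adjusted p = 7.06e-16). The neuregulin Nrg1 rose by 1.81, epiregulin (Ereg) by 1.19, betacellulin (Btc) by 1.17 and Tgfa by 1.14. One ligand went the other way, since epigen (Epgn) fell by 0.96. The receptor Egfr read 11.90, 11.93 and 11.93 in the mock arrays and 10.97, 11.17 and 11.04 in the Hras arrays, a change of -0.86 ± 0.06 (adjusted p = 4.58e-11). Its groups did not overlap, and Erbb2 and Erbb3 fell by 0.64 and 0.33. The receptor inhibitors Errfi1 and Lrig1 rose by 0.52 and 1.03, and Lrig3 fell by 0.80.

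Among 30 Ras regulators and PI3 kinase genes, 11 rose and 7 fell (36.7% and 23.3%, median 0.04). The GTPase-activating proteins Rasa4, Rasa1 and Rasa2, which switch Ras off, rose by 1.73, 0.65 and 0.43. The exchange factor Rasgrp1, which switches Ras on, read 10.34, 10.21 and 10.34 in the mock arrays and 8.56, 8.91 and 8.78 in the Hras arrays, a change of -1.55 ± 0.08 (adjusted p = 9.85e-13). Every Hras array lay below every mock array. Rasgef1b, another exchange factor, rose by 0.77. The catalytic subunit gene Pik3ca changed by -0.06 ± 0.05 and did not pass.

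**Figure D2:**
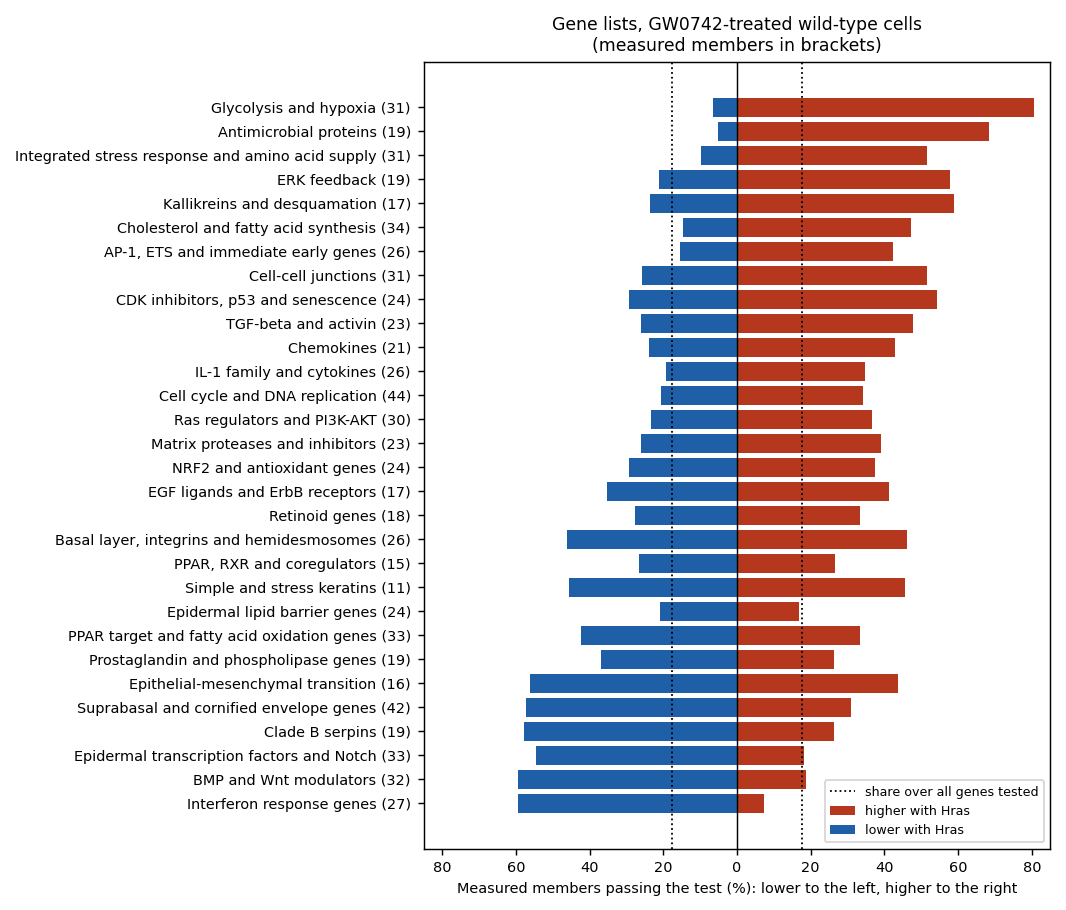
Share of measured members of each of 30 gene lists that passed the test in wild-type cells under GW0742, in percent, with falls to the left and rises to the right. Dotted lines mark the shares over all 19937 genes, 17.5% lower and 17.7% higher. Glycolysis and hypoxia genes stand at the top with 25 of 31 members higher, and interferon response genes at the bottom with 16 of 27 lower.

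Several secreted signals rose strongly. Of 26 IL-1 family and cytokine genes, 9 rose and 5 fell (34.6% and 19.2%, median -0.01). Il1a, the precursor of interleukin-1 alpha that epidermal cells store, read 10.44, 10.20 and 10.25 in the mock arrays and 13.62, 13.62 and 13.44 in the Hras arrays, a rise of 3.26 ± 0.09 (adjusted p = 3.53e-17). The groups were wide apart. Il24 rose by 3.49, Lif by 2.56, Il1f6 (interleukin-36 alpha) by 1.92, Il23a by 1.80 and Tnf by 1.48. The alarmin Il33 read 10.53, 10.21 and 10.44 in the mock arrays and 8.01, 8.16 and 8.17 in the Hras arrays, a change of -2.27 ± 0.09 (adjusted p = 1.75e-14). Its arrays did not overlap, and Il18 fell by 1.68. Il1f9 (interleukin-36 gamma) changed by -0.70, against the rise of Il1f6. Il6 lay among the dimmest genes in both groups, with means of 3.62 and 3.56.

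Of the 21 chemokines, 9 rose and 5 fell (42.9% and 23.8%, median -0.02). The rises were led by CXC genes that are known to attract neutrophils: besides Ppbp, Cxcl2 read 5.55, 5.99 and 6.09 in the mock arrays and 9.32, 8.88 and 8.84 in the Hras arrays, a rise of 3.14 ± 0.16 (adjusted p = 8.39e-13). Cxcl1 rose by 2.44, Cxcl5 by 1.93 and Cxcl3 by 0.67. The falls included the monocyte chemokine Ccl2, which read 9.64, 9.60 and 9.59 in the mock arrays and 8.14, 8.07 and 7.91 in the Hras arrays, a change of -1.57 ± 0.07 (adjusted p = 2.02e-13). Both genes had separate groups. The epidermal chemokine Cxcl14 fell by 1.76 and the interferon-induced Cxcl10 by 1.07.

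Proteases that cut the extracellular matrix rose by several fold. Of 23 matrix proteases and inhibitors, 9 rose and 6 fell (39.1% and 26.1%, median 0.02). The collagenase Mmp13 read 7.78, 7.74 and 7.91 in the mock arrays and 10.36, 10.09 and 10.29 in the Hras arrays, a rise of 2.43 ± 0.22 (adjusted p = 9.59e-09), and the stromelysin Mmp10 read 7.99, 7.86 and 8.11 in the mock arrays and 10.41, 10.36 and 10.17 in the Hras arrays, a rise of 2.33 ± 0.10. Neither gene had overlapping arrays. The gelatinase Mmp9 rose by 2.69, the stromelysin Mmp3 by 1.88, the collagenases Mmp1a and Mmp1b by 1.73 and 2.23, and the urokinase receptor and urokinase, Plaur and Plau, by 2.73 and 1.58. Mmp1a and Mmp1b are close copies of each other and may share signal. The inhibitor Timp3 fell by 0.65 and the protease Adamts1 by 1.84.

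The promoters of 3 of these genes are shown because each holds an AP-1 motif in the 250 bases before the transcription start, next to the AP-1 subunits described above. The sequences are from RefSeq on GRCm38.p6, 5′ to 3′ on the gene's strand. Capitals mark TGANTCA, the motif searched on both strands (it reads as itself on the other).
Ppbp (chr5:90768268-90768517, plus strand): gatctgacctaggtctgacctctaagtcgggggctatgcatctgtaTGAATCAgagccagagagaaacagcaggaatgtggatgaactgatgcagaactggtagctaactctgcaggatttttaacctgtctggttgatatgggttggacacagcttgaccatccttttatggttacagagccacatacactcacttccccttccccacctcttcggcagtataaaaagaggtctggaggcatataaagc
Mmp10 (chr9:7502092-7502341, plus strand): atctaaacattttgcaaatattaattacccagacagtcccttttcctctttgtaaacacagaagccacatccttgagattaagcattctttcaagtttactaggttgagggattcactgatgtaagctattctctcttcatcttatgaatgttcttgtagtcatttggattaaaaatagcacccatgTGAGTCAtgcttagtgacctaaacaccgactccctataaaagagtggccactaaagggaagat
Mmp13 (chr9:7272264-7272513, plus strand): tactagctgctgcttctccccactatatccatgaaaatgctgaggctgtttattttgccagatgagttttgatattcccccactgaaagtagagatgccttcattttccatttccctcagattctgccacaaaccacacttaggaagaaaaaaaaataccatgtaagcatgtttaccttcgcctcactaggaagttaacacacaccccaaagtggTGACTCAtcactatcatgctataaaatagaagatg
The motif's first base lay 204 bases before the start in Ppbp, 63 in Mmp10 and 35 in Mmp13. Over the 15613 tested genes with a promoter in the RefSeq table, 7.12% held the motif in this window. The share was 7.27% among the 2792 genes that rose and 7.16% among the 2751 that fell, so the motif was about as frequent in either set as in all genes. The PPAR direct repeat, searched as AGGTCA, 1 base and AGGTCA on both strands, was present in 7 of the 15613 genes, among them 2 that rose and 0 that fell. A match of letters is a description and not a site.

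Antimicrobial proteins were higher as a list, with 13 of 19 members up and 1 down (68.4% and 5.26%, median 0.59). S100a7a, a psoriasin-related calcium-binding protein, rose by 2.79 ± 0.09 (adjusted p = 2.05e-16). The beta-defensin Defb14 rose by 2.32, the protease inhibitor Slpi by 2.24 and Lcn2, which binds bacterial siderophores, by 2.21. S100a8 and S100a9, the paired subunits of calprotectin, rose by 1.64 and 1.76. The exception was the constitutive beta-defensin Defb1, which read 12.21, 12.14 and 12.12 in the mock arrays and 10.58, 11.01 and 10.73 in the Hras arrays, a change of -1.38 ± 0.11 (adjusted p = 5.66e-10). Its groups did not overlap. The kallikrein and desquamation list was also mostly higher, with 10 of 17 up and 4 down (58.8% and 23.5%, median 0.41). The membrane serine proteases Tmprss11e, Prss22 and Prss27 rose by 3.29, 2.77 and 2.16. Klk5, the kallikrein that starts the desquamation cascade, read 11.27, 11.21 and 11.23 in the mock arrays and 8.92, 9.35 and 9.42 in the Hras arrays, a change of -2.01 ± 0.18 (adjusted p = 6.94e-09). It moved against most of its list, as did Klk11, which fell by 1.29.

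Other keratin genes were divided by type. Beyond Krt8 and Krt18, Krt19 rose by 2.33, Krt23 by 1.83 and Krt7 by 1.35, all keratins of simple or glandular epithelia. The stress keratins Krt6a, Krt6b, Krt16 and Krt17, which mark wounded or cultured epidermis, all passed in the other direction, with changes of -0.34, -0.85, -0.71 and -0.31. In all 5 of 11 members rose and 5 fell (45.5% each, median -0.08). The basal keratins stayed bright. Krt5 fell by 0.21 from a mean of 14.27, and Krt14 changed by -0.14 ± 0.04 from 14.12. Trp63, the master transcription factor of stratified epithelia, read 12.25, 12.31 and 12.25 in the mock arrays and 11.32, 11.36 and 11.45 in the Hras arrays, a change of -0.89 ± 0.06 (adjusted p = 1.33e-10). No Hras array reached the lowest mock array.

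Junction genes followed the same division. Of 31 members, 16 rose and 8 fell (51.6% and 25.8%, median 0.20). The claudins of simple epithelial tight junctions rose most: Cldn7 read 7.66, 7.51 and 7.65 in the mock arrays and 11.74, 11.45 and 11.57 in the Hras arrays, a rise of 3.98 ± 0.18 (adjusted p = 7.97e-14), and Cldn3 and Cldn6 rose by 3.46 and 2.75. The tight junction genes Ocln, Tjp1, Marveld2 and Marveld3 rose by 0.70, 0.49, 1.29 and 0.93. Among desmosomal genes of stratified epidermis, Dsc3 fell by 0.97, Dsg1b by 0.92, Dsp by 0.77 and Pkp1 by 0.37, while the broadly expressed Dsc2 and Dsg2 rose by 2.10 and 0.52. E-cadherin (Cdh1) changed by 0.05 ± 0.04, which did not pass. Of 26 basal layer, integrin and hemidesmosome genes, 12 rose and 12 fell (46.2% each). The integrin Itga3 rose by 1.69 ± 0.05, and Itgb8 and Itgb6 fell by 1.93 and 1.18. Col17a1, a hemidesmosomal collagen, fell by 0.83.

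All 16 members of the epithelial-mesenchymal transition list passed, 7 higher and 9 lower (43.8% and 56.2%, median -0.21). The mesenchymal genes Zeb2, Vim and Twist1 fell by 1.4, 0.94 and 0.69, and Zeb1 and Snai1 fell by 0.45 and 0.39. The epithelial adhesion gene Epcam rose by 1.63 ± 0.09 and Podxl, an anti-adhesive sialomucin, by 3.45 ± 0.16. Cdh2 (N-cadherin) and Tnc rose by 0.56 and 0.52, so the list did not move one way. Markers of other cell types moved alongside these genes. All 14 fibroblast markers fell (median -1.50), and their summed linear level went from between 10714 and 11973 in the mock arrays to between 3650 and 3837 in the Hras arrays. Col1a1 read 11.23, 11.41 and 11.19 in the mock arrays and 9.60, 9.41 and 9.57 in the Hras arrays, and Pdgfrb changed by -2.07 ± 0.07. All 12 melanocyte markers fell as well (median -0.68), with sums from between 15496 and 16134 to between 8417 and 9290. Tyrp1, a pigment enzyme, read 12.55, 12.52 and 12.48 in the mock arrays and 11.58, 11.69 and 11.71 in the Hras arrays. The part of these cells in the results on Vim, the Zeb genes and other matrix genes was not tested. In bulk RNA, fewer cells of a type and less RNA per cell cannot be told apart.

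The remaining marker lists were dimmer. Of 18 leukocyte and Langerhans cell markers, 2 rose and 6 fell, and their sum lay between 2497 and 2627 in mock and between 2551 and 2778 in Hras arrays. With the lowest 40% of genes left out, which removes dim members before the test, only 1 of them was lower. The defining leukocyte gene Ptprc (CD45) had means of 5.98 and 5.91 and Cd207, which marks Langerhans cells, 5.85 and 5.81, both below the median gene. The sum of 9 endothelial markers moved from between 1636 and 1729 to between 1885 and 2048, with 3 members higher and 2 lower. Without Hras replicate 3, or with the lowest 40% of genes left out, only 1 endothelial marker was lower. Among 6 adipocyte markers, Fabp4 alone rose, by 2.15, while Adipoq had means of 5.02 and 5.02. Among 9 skeletal muscle markers only Acta1 rose, by 1.01. Of 10 keratinocyte markers 0 rose and 8 fell (median -0.27), and their sum went from between 108032 and 110900 to between 89121 and 90709, so it remained far above that of any other list in both groups.

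The later steps of epidermal differentiation split into a falling majority and a rising minority. Of 42 suprabasal and cornified envelope genes, 24 fell, 13 rose and 5 did not pass (57.1% lower and 31% higher, median -0.53). Lor, which encodes loricrin, the main protein of the cornified envelope, read 12.19, 12.30 and 12.24 in the mock arrays and 9.67, 9.77 and 9.81 in the Hras arrays, a change of -2.49 ± 0.15 (adjusted p = 1.43e-11). The calmodulin-like Calm4 fell by 2.57, repetin (Rptn) by 2.31, filaggrin-2 (Flg2) by 2.00, hornerin (Hrnr) by 1.93 and the crosslinking enzymes Tgm5 and Tgm3 by 2.28 and 1.64. Of 13 late envelope genes of the Lce1 group, 10 fell, among them Lce1f by 1.96 and Lce1c by 1.63, and 1 rose. Of 5 genes of the Lce3 group, which is known from wounded and inflamed skin, 4 rose. Lce3a read 8.55, 8.31 and 8.79 in the mock arrays and 10.28, 10.62 and 10.93 in the Hras arrays, a rise of 2.06 ± 0.20 (adjusted p = 2.21e-08). Its groups did not overlap, and Lce3f and Lce3b rose by 1.49 and 1.44. The small proline-rich genes Sprr2e, Sprr2f and Sprr3 rose by 2.00, 1.95 and 1.5, and Sprr2b fell by 2.34. Involucrin (Ivl) rose by 0.54 ± 0.08. Genes of the Lce and Sprr families are similar in sequence, and their probe sets may share signal.

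Among 33 epidermal transcription factors and Notch genes, 18 fell and 6 rose (54.5% and 18.2%, median -0.24). After Pou2f3, the falls were Barx2 by 0.96, Cebpa by 0.86, Gata3 by 0.82, Grhl1 by 0.78 and the Notch ligand Dll1 by 0.71. The receptors Notch1 and Notch2 fell by 0.63 and 0.59. The ETS-type epithelial factors Elf3, Elf5 and Ehf rose by 1.76, 1.14 and 0.97, and so did Prdm1 and Grhl3, by 0.69 and 0.38. Of 24 barrier lipid genes, 4 rose and 5 fell, while 15 did not pass (16.7% and 20.8%, median -0.04), near the background. The lipid barrier enzymes Degs2 and Sult2b1 rose by 1.37 and 0.77, while the lipases Lipm and Lipn fell by 1.82 and 1.27. Of 19 clade B serpins, intracellular protease inhibitors, 5 rose and 11 fell (26.3% and 57.9%, median -0.48). Serpinb9e read 6.82, 6.72 and 6.99 in the mock arrays and 10.13, 9.84 and 10.06 in the Hras arrays, a rise of 3.17 ± 0.19 (adjusted p = 7.81e-12). Serpinb3a, a squamous cell carcinoma antigen relative, read 6.73, 6.78 and 6.82 in the mock arrays and 3.51, 3.79 and 3.70 in the Hras arrays, a change of -3.11 ± 0.16 (adjusted p = 1.02e-12). Both had separate groups, and both families hold close copies. With the lowest 40% of genes left out, so that dim members were not tested, 2 serpins were higher and 5 lower.

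Growth control genes showed both brakes and drivers among the rises. Of 24 CDK inhibitor, p53 and senescence genes, 13 rose and 7 fell (54.2% and 29.2%, median 0.23). Cdkn2a, the locus of p16 and ARF, read 7.68, 7.57 and 7.62 in the mock arrays and 8.80, 8.57 and 8.74 in the Hras arrays, a rise of 1.08 ± 0.10 (adjusted p = 1.6e-08). No mock array reached the lowest Hras array. Cdkn2b (p15) rose by 0.53, the p53 targets Mdm2 and Sesn2 by 0.92 and 0.91, and the secreted Igfbp3 and Igfbp7 by 1.41 and 1.10. The retinoblastoma gene Rb1 changed by -1.03 ± 0.05, with each Hras array below each mock array. Of 44 cell cycle and DNA replication genes, 15 rose and 9 fell (34.1% and 20.5%, median 0.04). Without Hras replicate 2, only 9 of them were higher. Ccnd1, the cyclin D1 that growth factors induce, read 12.11, 12.11 and 12.16 in the mock arrays and 13.51, 13.45 and 13.40 in the Hras arrays, a rise of 1.32 ± 0.08 (adjusted p = 1.73e-11). The replication licensing factor Cdt1 rose by 0.99, and Mki67, the proliferation marker Ki-67, fell by 0.48. The replication genes Rrm1, Prim1 and Mcm6 fell by 0.32, 0.36 and 0.25.

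The growth-suppressing TGF-beta pathway was in part higher, with 11 of 23 members up and 6 down (47.8% and 26.1%, median 0.02). The ligand Tgfb1, the receptors Tgfbr1 and Tgfbr2 and the signal carrier Smad3 rose by 0.68, 0.80, 0.46 and 0.90. The induced matrix genes Tgfbi and Ccn2 fell: Tgfbi read 12.46, 12.62 and 12.56 in the mock arrays and 9.55, 9.73 and 9.59 in the Hras arrays, a change of -2.93 ± 0.07 (adjusted p = 2.07e-18). Its groups did not overlap, and Ccn2 fell by 0.92. BMP and Wnt modulators were mostly lower, with 19 of 32 down and 6 up (59.4% and 18.8%, median -0.27). The BMP target Id1, the ligand Bmp4 and the Wnt target Axin2 fell by 1.23, 1.26 and 1.29, and the stem cell receptor Lgr5 by 1.72. Wnt7a, Wnt7b and the BMP antagonist Grem1 rose by 2.51, 1.53 and 1.69.

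Of all lists, glycolysis and hypoxia genes had the largest share of members that rose: 25 of 31, with 2 lower (80.6% and 6.45%, median 0.62). With the lowest 40% of genes left out, and dim members thus not tested, 1 was lower. Bnip3, a mitophagy receptor that hypoxia induces, read 9.52, 9.61 and 9.67 in the mock arrays and 11.91, 11.93 and 12.16 in the Hras arrays, a rise of 2.40 ± 0.12 (adjusted p = 3.35e-13). Egln3, a prolyl hydroxylase that marks HIF for destruction, read 8.74, 8.63 and 8.75 in the mock arrays and 11.05, 10.98 and 11.42 in the Hras arrays, a rise of 2.44 ± 0.15 (adjusted p = 2.44e-11). Neither gene had overlapping groups. The lactate exporter Slc16a3 rose by 2.24, the glucose transporter Slc2a1 by 0.82, carbonic anhydrase Car9 by 1.56 and Vegfa by 1.00. Of the glycolytic enzymes, Pfkl, Pgk1, Tpi1 and Ldha rose by 1.14, 0.70, 0.62 and 0.41. Hif1a itself fell by 0.42.

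The promoters of Bnip3 and Egln3 are shown for the core of the hypoxia response element, ACGTG, searched on both strands (CACGT on the other) in the 250 bases before the start. They are from RefSeq on GRCm38.p6, 5′ to 3′ on the gene's strand, with the match in capitals. In Bnip3 overlapping matches on both strands make a run of 6 capitals.
Bnip3 (chr7:138909507-138909756, minus strand): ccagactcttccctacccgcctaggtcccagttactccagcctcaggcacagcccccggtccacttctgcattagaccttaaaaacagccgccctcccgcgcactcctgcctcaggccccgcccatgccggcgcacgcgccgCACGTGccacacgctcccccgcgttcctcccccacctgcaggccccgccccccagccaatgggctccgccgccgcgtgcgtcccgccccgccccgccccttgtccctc
Egln3 (chr12:54203875-54204124, minus strand): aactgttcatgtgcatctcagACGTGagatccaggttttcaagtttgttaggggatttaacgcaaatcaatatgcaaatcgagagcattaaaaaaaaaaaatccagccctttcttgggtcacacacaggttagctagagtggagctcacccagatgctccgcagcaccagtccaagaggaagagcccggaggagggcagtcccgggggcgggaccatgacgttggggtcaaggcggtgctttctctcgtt
The match began 108 bases before the start in Bnip3 and 229 in Egln3. The core was present in 20.9% of the 15613 promoters, in 25.4% of those of genes that rose, in 22.4% of those that fell and in 19.3% of those that did not pass.

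Genes of amino acid supply and the integrated stress response rose in 16 of 31 cases and fell in 3 (51.6% and 9.68%, median 0.16). At a minimum fold of 1.2, 5 were higher and 1 lower. The amino acid transporter Slc38a1 rose by 2.25 ± 0.10 and the stress protein Nupr1 by 1.39 ± 0.06. The transcription factor Ddit3 (CHOP) and the ER chaperone Hspa5 rose by 0.46 and 0.32. The glutamine transporter Slc1a5 read 10.01, 10.09 and 9.99 in the mock arrays and 8.68, 8.90 and 8.59 in the Hras arrays, a change of -1.31 ± 0.09 (adjusted p = 1.54e-10). It was the largest change in the lower direction on the list, with separate groups. Of 34 cholesterol and fatty acid synthesis genes, 16 rose and 5 fell (47.1% and 14.7%, median 0.14). Dhcr7, the last enzyme of cholesterol synthesis, rose by 1.67 and the desaturases Fads1 and Fads2 by 1.2 and 1.45.

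PPAR target and fatty acid oxidation genes were divided, with 11 of 33 higher and 14 lower (33.3% and 42.4%, median -0.18). The rises included lipid storage and fuel choice genes: Pdk4, the kinase that shuts pyruvate out of the mitochondrion, read 10.99, 10.93 and 10.90 in the mock arrays and 12.33, 12.45 and 12.61 in the Hras arrays, a rise of 1.52 ± 0.08 (adjusted p = 1.76e-12). Every Hras array was above every mock array, in cells that all received the agonist. The lipid droplet protein Hilpda rose by 2.17, the fatty acid carrier Fabp4 by 2.15 and Plin2 by 0.47. Angptl4 read 11.66, 11.62 and 11.67 in the mock arrays and 12.02, 12.10 and 12.11 in the Hras arrays, a rise of 0.42 ± 0.11 (adjusted p = 0.00306). The groups did not overlap, though the step was small beside that of Pdk4. Of the 16 enzymes and carriers of beta-oxidation on the list, 10 fell and 3 rose. Decr1 fell by 0.95, Hadha by 0.45, Acadm by 0.34 and the carnitine transferase Cpt1a by 0.41, while the dehydrogenase Acadl and the isomerases Eci1 and Ech1 rose by 0.21, 0.31 and 0.28. Acadl did not pass without mock replicate 1, nor Ech1 without Hras replicate 2. Of 15 PPAR, RXR and coregulator genes, 4 rose and 4 fell (26.7% each). The partner receptor Rxra changed by -0.54 ± 0.05, and Ppargc1b fell by 0.66.

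Interferon response genes were mostly lower, with 16 of 27 down and 2 up (59.3% and 7.41%, median -0.50). Leaving out 1 array left 1 member higher in 4 cases. Usp18, which switches off type I interferon signalling, read 8.61, 9.57 and 9.03 in the mock arrays and 7.0, 7.01 and 7.75 in the Hras arrays, a change of -1.82 ± 0.24 (adjusted p = 2.17e-06). The transcription factors Irf9, Stat2 and Irf7 fell by 1.38, 0.98 and 0.79, and Ifi27 by 1.79. B2m, the light chain of MHC class I, and the peptide transporter Tap1 fell by 0.53 and 0.87. Irf1 was an exception and rose by 0.68 ± 0.14. The lipid mediator genes split, with 5 of 19 higher and 7 lower (26.3% and 36.8%, median -0.10). The prostaglandin synthases Ptgs2 and Ptges rose by 0.57 and 1.02. Hpgd, which breaks prostaglandins down, fell by 1.21, and the secreted phospholipase Pla2g2f fell by 2.95. Of 18 retinoid genes, 6 rose and 5 fell (33.3% and 27.8%, median -0.10). The retinol receptor Stra6 read 8.12, 8.05 and 8.01 in the mock arrays and 11.43, 11.14 and 11.25 in the Hras arrays, a rise of 3.21 ± 0.12 (adjusted p = 1.17e-14). The retinaldehyde dehydrogenase Aldh1a3 and the carrier Crabp2 rose by 1.95 and 1.46, and Crabp1 fell by 1.16. Of 24 NRF2 and antioxidant genes, 9 rose and 7 fell (37.5% and 29.2%, median 0.02). Gsta4, a glutathione transferase for lipid peroxidation products, rose by 3.07 ± 0.12 (adjusted p = 7.01e-15).

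The arrays also carry probe sets for 271 microRNA genes whose mature sequence is in the RefSeq table. These probe sets read the precursor or its host transcript and not the mature microRNA. Hras raised 32 of them (11.8%) and lowered 17 (6.27%), with a median of -0.004, and 16 rose and 6 fell by at least 1.4-fold. The microRNAs below were chosen after their values were seen. Their mature sequences are from RefSeq on GRCm38.p6, 5′ to 3′, with the seed (bases 2 to 8, which pair with target mRNAs) in capitals. They are shown because they include the largest rise and the 4 largest falls, and pairs that share a seed. They are not all of the largest changes or of such pairs: Mir29a, which is not shown, rose by 0.77. Mir19a and Mir19b-1, which share a seed and are not shown either, rose by 0.52 and 0.55. Mir19b-2, with the same mature sequence as Mir19b-1, changed by 0.13 and did not pass.
mmu-miR-31-5p (chr4:88910614-88910635, minus strand): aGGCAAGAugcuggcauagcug
mmu-miR-182-5p (chr6:30165962-30165986, minus strand): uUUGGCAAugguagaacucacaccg
mmu-miR-200b-3p (chr4:156055685-156055706, minus strand): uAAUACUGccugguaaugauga
mmu-miR-200a-3p (chr4:156054911-156054932, minus strand): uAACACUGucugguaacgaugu
mmu-miR-141-3p (chr6:124717917-124717938, minus strand): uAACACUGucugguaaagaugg
mmu-let-7e-5p (chr17:17830366-17830387, plus strand): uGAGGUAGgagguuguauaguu
mmu-let-7c-5p (chr16:77599672-77599693, plus strand): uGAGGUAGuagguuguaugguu
mmu-miR-99a-5p (chr16:77598940-77598961, plus strand): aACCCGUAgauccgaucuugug
mmu-miR-205-5p (chr1:193507503-193507524, minus strand): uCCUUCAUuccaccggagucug
mmu-miR-203-3p (chr12:112130927-112130948, plus strand): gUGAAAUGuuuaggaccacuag
The precursor of miR-31 had the largest rise. Mir31 read 8.91, 8.97 and 8.86 in the mock arrays and 10.29, 10.20 and 10.33 in the Hras arrays, a rise of 1.36 ± 0.08 (adjusted p = 3.95e-12). Mir203, whose mature form is known to promote keratinocyte differentiation, read 8.35, 8.45 and 8.45 in the mock arrays and 7.11, 7.37 and 7.15 in the Hras arrays, a change of -1.21 ± 0.14 (adjusted p = 2.37e-07). Both pairs of groups were separate, and the epidermal Mir205 fell by 0.76. Of 4 tested genes of the miR-200 family, known as a guard of the epithelial state, 3 rose: Mir200b by 0.71, and Mir200a and Mir141, which share the seed AACACUG, by 0.49 and 0.49. Mir200c changed by 0.18 ± 0.08 and did not pass (adjusted p = 0.0682). Of 9 tested let-7 genes, 7 did not pass. The others are shown above with their seed GAGGUAG, and of them Mirlet7e rose by 0.65 and Mirlet7c-1 changed by -1.06 ± 0.17. Mir99a lies beside Mirlet7c-1 on chromosome 16 and fell by 1.04.

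The Hras effect in DMSO was measured on 6 other arrays, and most of the change was found there too. Under DMSO 7454 genes passed (37.4%), 3671 higher (18.4%) and 3783 lower (19%). With each array centred on its median these counts became 4625 and 3142, while under GW0742 they became 3913 and 3049. Of the genes that rose under GW0742, 2822 also rose under DMSO, which is 79.8% of the first list and 76.9% of the second, and 29 fell. Of those that fell under GW0742, 2879 also fell under DMSO (82.6% and 76.1%), and 6 rose. The difference between the effects passed for 492 genes (2.47%), in 408 (2.05%) with the higher value under GW0742 and in 84 (0.421%) with the lower one. Leaving out 1 array gave between 286 and 482 genes. The lowest total, 286, came without Hras GW0742 replicate 3, and it was 311 without mock GW0742 replicate 1 and 323 without mock DMSO replicate 2.

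Genes with a more positive Hras effect under the ligand included a protease, a serpin and enzymes of barrier lipids. Mmp13, described above, read 8.36, 8.63 and 8.52 in mock and 8.49, 8.65 and 9.41 in Hras cells under DMSO, where its change was 0.35 ± 0.22 and did not pass. The difference of 2.08 ± 0.31 (adjusted p = 0.000533) combined a lower mock level and a higher Hras level under GW0742. Serpinb9e had the largest difference, 2.82 ± 0.26 (adjusted p = 2.68e-06). Alox12b, the lipoxygenase that processes barrier ceramides, read 10.55, 10.55 and 10.54 in the mock arrays and 10.84, 10.93 and 11.12 in the Hras arrays, a change of 0.42 ± 0.17 that missed the threshold (adjusted p = 0.0689). Under DMSO it read 10.79, 10.60 and 10.67 in mock and 8.82, 9.02 and 9.65 in Hras cells, a change of -1.52 ± 0.17. The 3 Hras arrays thus stood above mock with the ligand and below mock without it, and the difference was 1.94 ± 0.24 (adjusted p = 7.58e-05). The barrier genes Aloxe3 and Pnpla1 had differences of 1.26 and 1.22, and the crosslinking enzyme Tgm1 of 1.24. Over the 24 barrier lipid genes 8 differences passed, all with the higher value under GW0742 (33.3%), and over the 33 epidermal transcription factors and Notch genes 11 did (33.3%). In the glycolysis and hypoxia list 12 of 31 did (38.7%). Over all genes the share was 2.05%. Some calls in these lists were not stable: that of Acer1 was lost in 11 and that of Ankrd37 in 10 of the alternatives tried. Adm, the vessel-dilating peptide adrenomedullin, rose by 0.69 under GW0742 and fell by 0.82 under DMSO, a difference of 1.51 ± 0.23.

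The known ligand targets Pdk4 and Angptl4 differed in opposite directions. Pdk4 read 6.74, 6.78 and 6.87 in mock and 6.71, 6.45 and 6.75 in Hras cells under DMSO, with a change of -0.16 ± 0.08 that did not pass, so its difference was 1.69 ± 0.12 (adjusted p = 2.71e-08). The Hras arrays were above mock under GW0742 and overlapped with mock under DMSO. Angptl4 read 7.50, 7.52 and 7.44 in mock and 9.79, 9.88 and 9.55 in Hras cells under DMSO, a rise of 2.25 ± 0.11. Under GW0742 its mock arrays already stood near the level of the Hras arrays, and the difference was -1.83 ± 0.15 (adjusted p = 5.91e-07). Sostdc1 fell by 2.15 under DMSO and further under GW0742, with a difference of -1.11 ± 0.10. Decr1, which changed by 0.10 ± 0.10 under DMSO, had a difference of -1.05 ± 0.14. In the cholesterol list 8 of 34 differences were negative (23.5%, against 0.421% of all genes) and 2 positive. Idi1, which makes isoprenoid precursors, had the largest at -0.69 ± 0.12. Its change was -0.14 ± 0.08 under GW0742 and 0.54 ± 0.08 under DMSO. Of the 10 largest negative differences, that of Lgr6, -0.76 ± 0.18, lost its call in 5 and that of Cp, -0.90 ± 0.22, in 10 of the alternatives tried. These 2 were not the only ones: 6 of the 20 genes named for this difference lost their call in at least 1 alternative. At a minimum fold of 1.2, only 4 negative differences passed over all genes.

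**Figure D3:**
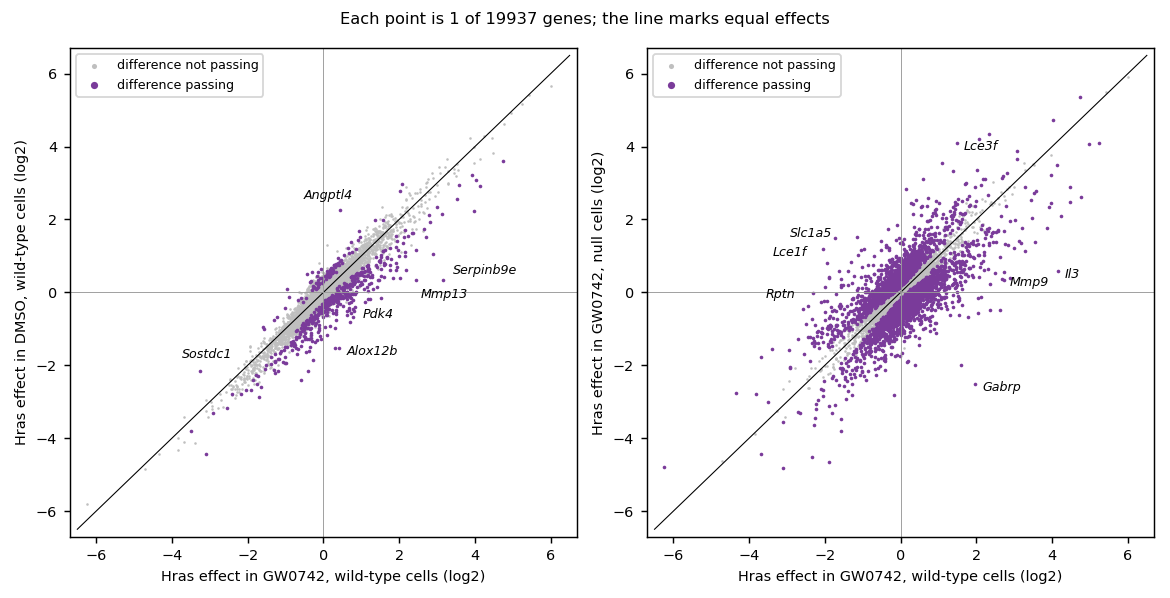
Hras effect of each of 19937 genes in wild-type cells under GW0742 (horizontal, log2) against the effect in wild-type cells under DMSO (left) and in null cells under GW0742 (right). The pairs compared share no arrays, the diagonal marks equal effects, and purple points are genes whose difference passed, 492 on the left and 4799 on the right.

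The same Hras effect in PPAR-beta null cells under GW0742, was again measured on 6 other arrays. There 8327 genes passed (41.8%), 4196 higher (21%) and 4131 lower (20.7%). With each pair fitted on its own arrays alone, 6442 genes passed in null cells and 6948 in wild-type cells under GW0742. Which genotype had more passing genes thus depended on the model. Of the genes that rose in wild-type cells, 2286 also rose in null cells, 64.6% of the first list and 54.5% of the second, and 255 fell. Of those that fell, 2311 also fell in null cells (66.3% and 55.9%), and 182 rose. The difference passed for 4799 genes (24.1%), with the higher value in null cells for 2285 (11.5%) and the higher value in wild-type cells for 2514 (12.6%). Fitted on the arrays of these groups alone, the numbers were 1883 and 2116.

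Differences between the genotypes included most cornified envelope genes. Of 42 members, 29 had the higher (more positive) Hras effect in null cells (69%, against 11.5% of all genes) and 1 in wild-type cells. Lce1f read 9.82, 9.52 and 9.82 in the mock arrays and 7.31, 8.0 and 7.99 in the Hras arrays in wild-type cells. In null cells it read 8.46, 8.59 and 8.44 in mock and 9.23, 9.32 and 9.37 in Hras arrays, so it fell in one genotype and rose in the other, and the difference was 2.77 ± 0.29 (adjusted p = 6.54e-07). The Hras arrays of the genotypes did not overlap. Lor fell by 2.49 in wild-type and by 0.88 in null cells, a difference of 1.62 ± 0.21, and Rptn changed by -0.01 ± 0.21 in null cells. Lce3f rose in both, by 1.49 and by 4.10. Krt10 fell alike, with a change of -4.64 ± 0.09 in null cells and a difference of 0.08 ± 0.13 that did not pass, while Krt1 had a difference of 1.46 ± 0.18. The barrier lipid genes shared the pattern, with 18 of 24 higher in null cells (75%).

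**Figure D4:**
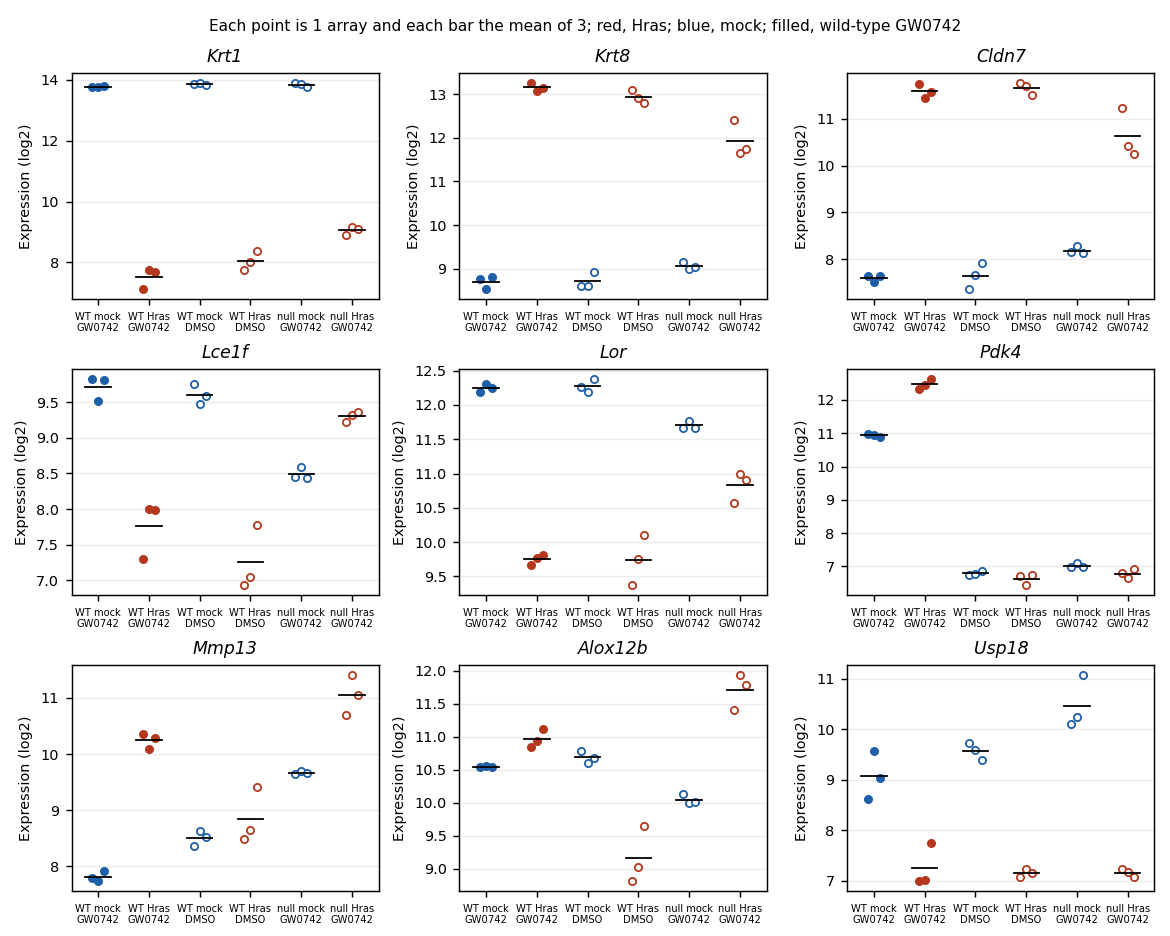
Log2 expression of 9 genes on each array of the 6 groups used. Blue points are mock and red points Hras, filled for wild-type cells under GW0742 and open elsewhere, with a bar at each mean of 3 arrays. Krt1, Krt8 and Cldn7 shift the same way in all pairs, Pdk4 is high only in the wild-type groups under GW0742, and Lce1f and Alox12b change direction between pairs.

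Genes with the higher effect in wild-type cells included secreted and surface proteins. Il3 read 5.08, 4.90 and 5.04 in the mock arrays and 9.29, 9.15 and 9.01 in the Hras arrays in wild-type cells, and 4.83, 5.17 and 4.71 in mock and 5.99, 4.97 and 5.49 in Hras arrays of null cells. The rise was thus 4.14 ± 0.23 against 0.58 ± 0.23, and the difference was -3.56 ± 0.33 (adjusted p = 1.22e-07). Gabrp, a GABA receptor subunit of epithelia, had the largest difference, -4.49 ± 0.21: it rose by 1.97 in wild-type and fell by 2.52 in null cells. Mmp9 rose by 2.69 in wild-type cells and changed by 0.36 ± 0.17 in null cells. The simple keratins Krt8, Krt18 and Krt7 and the claudins Cldn7, Cldn3 and Cldn6 also had the smaller Hras effect in null cells, with differences of -1.59, -1.15, -1.62, -1.53, -1.42 and -1.43. Pdk4 changed by -0.24 ± 0.08 in null cells, a difference of -1.76 ± 0.12. In the TGF-beta list 15 of 23 differences were negative (65.2%, against 12.6% of all genes), among them Smad3 at -0.99 and Tgfb1 at -0.65.

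Stress and amino acid genes showed the opposite order. Of 31 integrated stress response members, 31 rose in null cells, against 16 in wild-type cells, and 29 differences were positive (93.5%). Over all genes, 21% rose in null cells and 11.5% of differences were positive. The amino acid transporter Slc7a3 rose by 0.41 in wild-type cells and by 2.52 in null cells, and Trib3 by 0.63 and 1.75. Slc1a5 read 8.03, 8.01 and 8.01 in null mock and 9.10, 8.61 and 8.83 in null Hras arrays, a rise of 0.83 ± 0.09 beside its fall in wild-type cells. The difference was 2.14 ± 0.13 (adjusted p = 6.91e-10). It lay mostly in the mock level of Slc1a5, since every wild-type mock array was far brighter than every null mock array. The Hras arrays of the genotypes overlapped. Cell cycle genes had 25 of 44 positive differences (56.8%), led by Chek1 at 0.98 and Prim1 at 0.93. Of the 31 glycolysis and hypoxia genes, 27 rose in null cells, and 11 differences were positive (35.5%) and 1 negative. They included the lactate transporter Slc16a1 at 0.95 and the glycolytic enzyme Pfkp at 0.93, while those of Bnip3 and Slc2a1, 0.07 ± 0.16 and 0.05 ± 0.08, did not pass. Marker levels also differed: 11 of 14 fibroblast markers had the more positive change in null cells. Their median change was -0.75 there and -1.50 in wild-type cells, so they fell less in null cells. Their sum was already lower in null mock arrays, between 7000 and 7285, and went to between 3978 and 4172. Their part in the differences between genotypes was not tested.

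**Figure D5:**
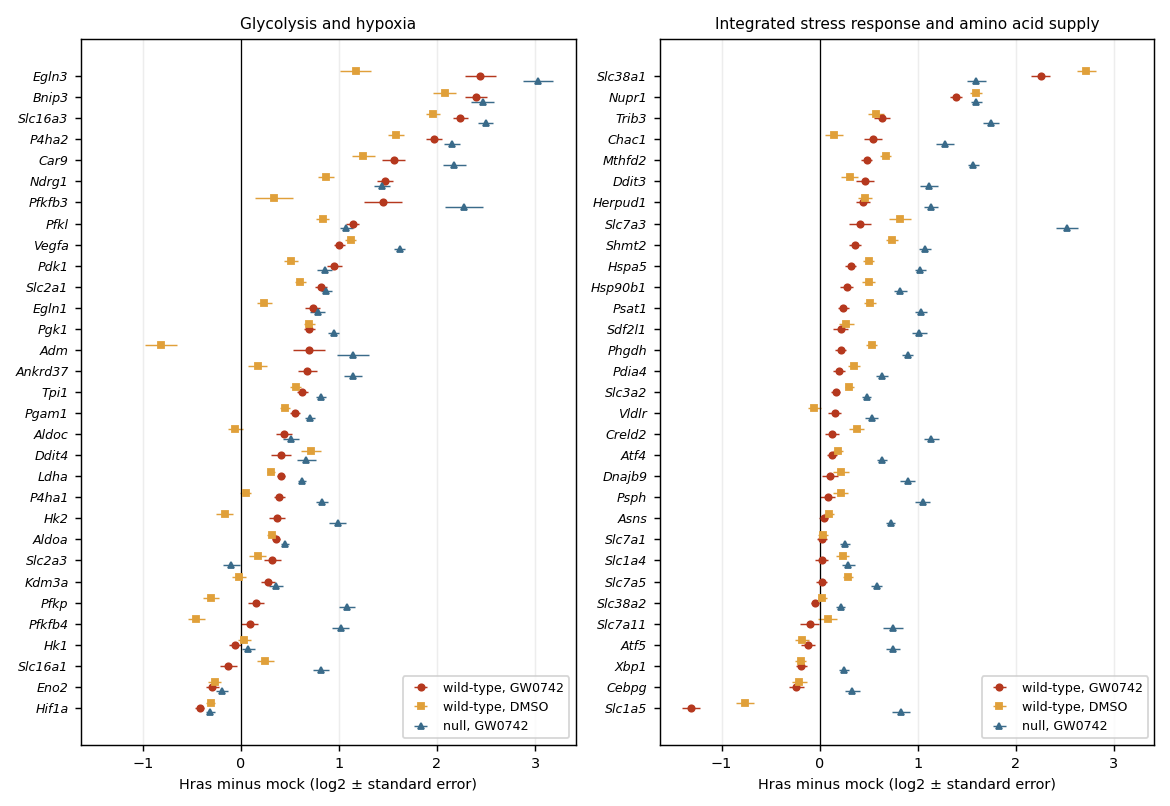
Hras minus mock (log2 ± standard error) of the members of the glycolysis and hypoxia list (left) and the integrated stress response and amino acid list (right), in wild-type cells under GW0742 (circles), wild-type cells under DMSO (squares) and null cells under GW0742 (triangles), in order of the first. On the right the triangles lie furthest to the right for most genes, and Slc1a5 is negative in wild-type and positive in null cells.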

How the data were processed

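Total RNA of primary keratinocytes was hybridised to Affymetrix Mouse Gene 1.0 ST arrays, 24 in all, 3 per group. The values the authors deposited are log2 expression, made with RMA per the submitters' processing notes, and were used unchanged. The software version was not given in the sources used here. Because RMA corrects background and quantile-normalizes, a shift common to most genes would be lost.

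The platform annotation gave 1 gene symbol for 21640 of 34760 probe sets, several for 1321 and none for 11799. Only those with 1 symbol were used, with the brightest probe set for the 954 genes that had several, which left 19937 genes and no filter on dim ones. Arrays were grouped by their labels.

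Means of all 8 groups were estimated in 1 model with limma 3.58.1 (R 4.3.3, lmFit, eBayes) at 16 residual and 4.435 prior degrees of freedom. All adjusted p-values come from this limma fit, are two-sided and were corrected by Benjamini-Hochberg over every gene tested. Arrays with the same replicate number were not paired in the fit, because nothing in the labels says that they belong together. Their deviations correlated at 0.076, 0.073 and 0.013 in the main comparison, and those of arrays with different numbers at between -0.11 and 0.047. The members, the 30 pathway lists and the 7 marker lists were chosen with earlier results of these data known. Named genes are the 10 largest rises and falls with non-overlapping arrays, the 10 largest differences in each direction, and list members. MicroRNA genes, shown promoters and the families tallied within lists were chosen after their values were seen. Summed marker levels add linear values, 2 to the power of each log2 level. The PPAR motif and others were searched in RefSeq promoters of GRCm38.p6. Hras, Cdkn1a and Areg are not reported here. Alternatives tried are each array centred on its median, the lowest 40% of genes left out, trend and robust moderation, the dimmest probe set of each gene, only the arrays compared, a model that left out the null Hras GW0742 arrays, a minimum fold of 1.2, the replicate block, and leaving out each array.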

Additional observations from a re-analysis of the deposited data

Results flagged for a closer look

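The values below stand out because the Hras effect itself differed between conditions, as tested by the difference term of the limma model. They are differences of signed log2 changes, so a higher effect can also be a weaker fall. None of their causes was tested.

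The Hras effect was higher under GW0742 than under DMSO in wild-type cells for Serpinb9e at 2.82, Mmp13 at 2.09 and Alox12b at 1.94. The same held for the nuclease Dnase1l3 at 1.84, the phosphatase Ppef1 at 1.82 and the immunoglobulin-like Skint9 at 1.81. It held for Pla2g4e at 1.76 and Pdk4 at 1.69 and for the dehydrogenases Dhrs9 at 1.63 and Sdr9c7 at 1.58. The effect was lower under GW0742 for Angptl4 at -1.83, Sostdc1 at -1.11, Decr1 at -1.05 and Cp at -0.90, the last of which is ceruloplasmin. It was also lower for Ces2e at -0.84, Fbp2 at -0.77 and Lgr6 at -0.76, and for Syngr1 at -0.74, Tmtc2 at -0.72 and Idi1 at -0.69. At a minimum fold of 1.2, only 4 negative differences passed over all genes.

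The Hras effect under GW0742 was higher in null than in wild-type cells for late envelope genes: Lce1b at 3.24, Lce1a2 at 3.22, Lce1f at 2.77 and Lce1d at 2.67, with Lce3f at 2.61 and Lce3e at 2.52. Repetin (Rptn) differed by 2.31, the potassium channel domain gene Kctd4 by 2.69, the carbonic anhydrase Car6 by 2.45 and the steroid sulfate transporter Slc10a6 by 2.31. It was lower in null cells for Gabrp at -4.49, Sorbs2 at -3.57 and Il3 at -3.57. The scavenger receptor Olr1 followed at -3.11, the transcription factor Sox11 at -2.83 and Clca3a2 at -2.74. The remaining values were those of Nrep at -2.63 and Slc4a4 at -2.62, a bicarbonate transporter, and of Ppef1 at -2.50 and Vtcn1 at -2.44, the last an immune checkpoint ligand.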

How the results depend on the processing

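Signs were checked for the 10 largest changes or differences in each direction, up to 6 passing members of each list, and Ppard, Angptl4 and Pdk4. None of these that passed changed sign in the alternatives tried. Other genes named above, among them further list members and the microRNA genes, were not part of this check. Which direction held more genes was not stable. The main counts were 3538 and 3487, and higher and lower calls became 3447 and 3501 with only the arrays compared, 3745 and 3773 without the null Hras GW0742 group, 3119 and 3176 without mock GW0742 replicate 1, and 3231 and 3314 without Hras GW0742 replicate 2. Centring each array turned the order under DMSO, to 4625 and 3142, and that of the difference between genotypes, to 2390 and 2368. A minimum fold of 1.2 lowered every count: to 2671 genes (1422 higher, 1249 lower) for the Hras effect in wild-type cells under GW0742, to 2962 (1367 and 1595) under DMSO, to 3490 (1709 and 1781, the order turned) in null cells, to 77 (73 and 4) for the difference between ligand and vehicle, and to 1286 (506 and 780) for the difference between genotypes, since it asks more of each gene. The 84 genes with the lower effect under GW0742 than under DMSO became 127 with the lowest 40% of genes left out, 133 with trend and robust moderation and 131 without the null Hras GW0742 group, and the cause was not tested. Leaving out 1 array in turn gave between 286 and 482 genes for that difference, of them 244 to 408 higher and 37 to 116 lower. The lower count was 37 without mock DMSO replicate 2, 42 without Hras GW0742 replicate 3, 46, 52 and 49 without mock GW0742 replicates 1, 2 and 3, and 54 without mock DMSO replicate 3. For the main effect it gave 6248 to 6545 genes. Nothing in the labels says whether replicate numbers pair the arrays, and the main fit did not pair them. With the number as a replicate block, 3554 genes were higher and 3489 lower in the main comparison, and the difference between ligand and vehicle gave 473 and 94. Of the 261 genes checked in this way for the main comparison, 16 lost their call under at least 1 alternative. Members passing in each list were recounted under the alternatives for the main comparison only, and not for the differences. At a minimum fold of 1.2 many of these counts fell. Members higher went from 16 to 6 in the cholesterol list and from 15 to 5 in the cell cycle list. Epidermal transcription factors and Notch genes that were lower went from 18 to 10. The number of arrays, 3 per group, limits what could pass.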
